A study of Zea mays with 10 samples.

Results

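The genes nac5 (GeneID:103629850), ERF1 (GeneID:542184) and DIP1 (GeneID:732783) are 3 maize genes named for regulators of transcription under stress, out of 48174 genes in the count table. They were picked by their rows because each was much more abundant in newly made RNA than in total nuclear RNA of the root tip, so the difference between those RNA groups is described here and not tested. Nuclei were taken from the last 1 mm of the primary root and the seminal roots of the inbred line B73, from seedlings 3 days after germination that spent 1 h in water and then 1 h in 175 uM 5-ethynyl uridine (EU). The EU nascent group (5 libraries) held RNA that had incorporated this uridine analog and was captured through biotin on streptavidin. The nuclear group (5 libraries) held total nuclear RNA with no capture step, from tissue that had been labelled in the same way. Nothing in the labels says that any seedling was stressed, and EU labelling was common to all 10 libraries. The labels number the replicates of each group 1 to 5 and call them biological, without saying what a replicate was grown or pooled from, so the spread given here is that between libraries. No pulldown of RNA from tissue without EU was analysed here. The series asked how labelling of new RNA and sequencing of nuclear RNA compare as measures of transcriptional activity.

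Genes of these kinds act in circuits through which plants answer drought, cold, wounding and pathogens. NAC factors such as the product of nac5 carry a conserved DNA-binding domain named after NAM, ATAF and CUC proteins, and members of the family act in root development and in responses to drought and salt. ERF1 belongs to the AP2/ERF family; in Arabidopsis the gene of that name acts downstream of ethylene and jasmonate and binds GCC-box elements, and whether the maize gene has that role was not measured here. DIP1 is known in maize as an R3H-domain protein that interacts with DBF1, an AP2/ERF factor that binds the drought-responsive element of the rab17 promoter.

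The libraries held from 2391209 to 5770915 assigned counts in EU nascent and from 1323450 to 20397606 in nuclear, and 21048 genes had enough counts to be tested. Levels are CPM (counts per 1e6 counts of a library), scaled between libraries by the trimmed mean of M values (TMM), and a log2 fold change is always EU nascent over nuclear. Of the 5 root tip marker genes found in the gene table, cdc2, pcna2, PIN1a and wox5B had counts and rtcs1 had none, with a summed level of 240.3 to 347.8 CPM in EU nascent and 315.4 to 406.0 CPM in nuclear. Of 6 leaf markers, the photosynthesis genes psbs1 and pep1 had no count, ssu1 had 1 count in each group and CAB1 had 3 in each. The other leaf markers, Ppdk1 and me3, made up nearly all of the leaf sum of 615.4 to 671.1 CPM in EU nascent and 479.6 to 540.7 CPM in nuclear. Of 4 kernel markers, zp15 had 1 count, o2 and gz50 had none, and pbf1 gave nearly all of the sum of 7.04 to 12.1 CPM in EU nascent and 8.09 to 12.0 CPM in nuclear. The leaf sums did not overlap between the groups and the root tip sums did. Of single tested genes, 11.2% had EU nascent entirely above nuclear. By edgeR (adjusted p under 0.05), PIN1a and pcna2 were lower in EU nascent. Their means were 179.6 and 41.2 CPM in EU nascent and 255.8 and 50.4 CPM in nuclear. Ppdk1 and me3 were higher, and cdc2 and pbf1 did not pass. Of all tested genes, 19.8% were higher and 21.1% lower. The part of the markers in the results was not tested. In bulk nuclei, a difference in the number of cells that express a gene and a difference in RNA per cell cannot be told apart.

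The NAC gene nac5 had the largest difference of the 3 genes and the lowest counts. It had 39, 176, 66, 165 and 77 counts in EU nascent replicates 1 to 5, against 10, 46, 10, 120 and 17 counts in nuclear replicates 1 to 5. Scaled, these were 15.7, 28.8, 25.4, 27.2 and 18.1 CPM in EU nascent and 8.09, 9.36, 6.18, 6.23 and 4.22 CPM in nuclear. The lowest EU nascent library, replicate 1, lay 1.68-fold above the highest nuclear library, replicate 2, so the groups did not overlap. The mean was 23.0 ± 5.78 CPM in EU nascent and 6.82 ± 1.97 CPM in nuclear (SD, n = 5 each), and the log2 fold change was 1.82 ± 0.21 (SE), or 3.53-fold. The values rest on 523 counts in EU nascent and 203 in nuclear. The smallest nuclear counts are coarse: 10 counts have an exact Poisson 95% interval of 4.80 to 18.4 counts, for counting error only.

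ERF1 was steady across the EU nascent libraries. It had 182, 434, 173, 350 and 296 counts in EU nascent replicates 1 to 5, against 34, 182, 39, 475 and 99 counts in nuclear replicates 1 to 5. The levels were 73.4, 71.0, 66.5, 57.6 and 69.4 CPM in EU nascent and 27.5, 37.0, 24.1, 24.7 and 24.6 CPM in nuclear. Nuclear replicate 2 stood above the other nuclear libraries, and EU nascent replicate 4, the lowest of its group, was still 1.56-fold above it. The mean was 67.6 ± 6.12 CPM in EU nascent and 27.6 ± 5.46 CPM in nuclear (SD, n = 5 each), with a log2 fold change of 1.28 ± 0.12 (SE), or 2.43-fold. Without nuclear replicate 2 the log2 fold change was 1.43.

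DIP1 had the most counts of the 3 genes, and so the smallest counting error. It had 288, 870, 258, 798 and 514 counts in EU nascent replicates 1 to 5, against 54, 284, 77, 1145 and 201 counts in nuclear replicates 1 to 5. The levels were 116.2, 142.3, 99.2, 131.4 and 120.5 CPM in EU nascent and 43.7, 57.8, 47.6, 59.5 and 49.9 CPM in nuclear. The lowest EU nascent library, replicate 3, lay 1.67-fold above the highest nuclear library, replicate 4. The mean was 121.9 ± 16.2 CPM in EU nascent and 51.7 ± 6.75 CPM in nuclear (SD, n = 5 each), with a log2 fold change of 1.20 ± 0.10 (SE), or 2.30-fold.

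**Figure D1:**
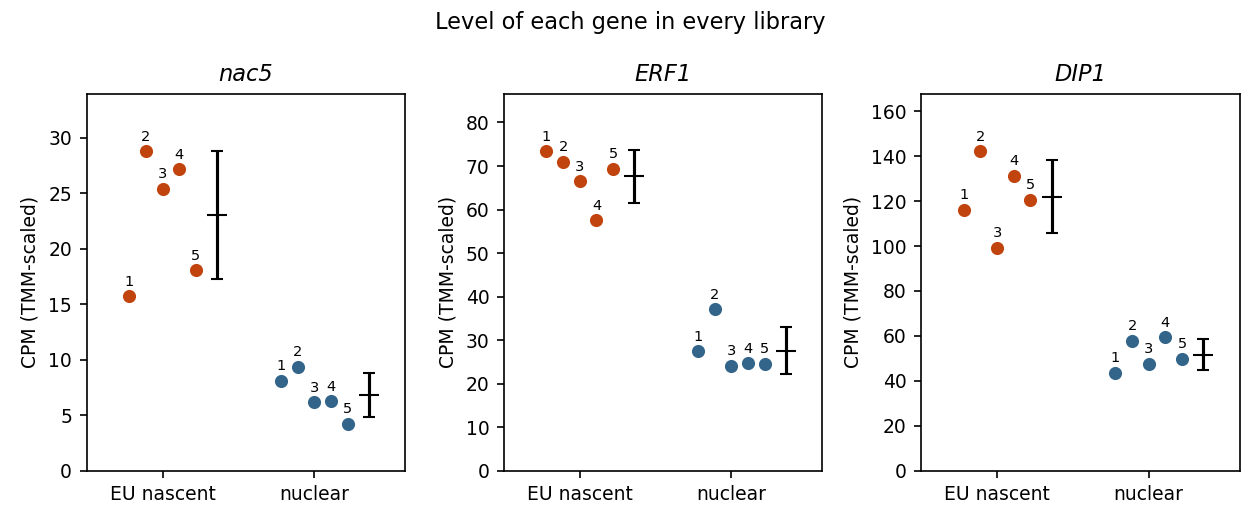
Level of nac5, ERF1 and DIP1 in CPM (TMM-scaled, linear axes from 0) in the 5 EU nascent and the 5 nuclear libraries, each point labelled with its replicate number; the bar beside each group is the mean and SD. In each panel every EU nascent library lies above every nuclear one, with 15.7 to 28.8 CPM against 4.22 to 9.36 CPM for nac5.

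By log2 fold change nac5 stood 25th, ERF1 142nd and DIP1 184th from the top of the 21048 tested genes, whose median was 0.02. These ranks shift with the genes tested and with 1 library: they were 357, 992 and 1145 of 26471 genes with DESeq2, 768, 2177 and 2307 of 34498 with no filter on low counts, and 60, 257 and 202 without nuclear replicate 4. Across all genes, 19.8% were higher in EU nascent by edgeR's quasi-likelihood test (adjusted p under 0.05), and 1.82% were higher by at least 2-fold as well. That is 4166 higher genes beside 4437 lower ones, which became 7374 higher and 2768 lower with library totals in place of TMM, as the median moved to 0.19. EU nascent lay entirely above nuclear for 11.2% of tested genes. The 3 genes were chosen on this contrast, so these shares are given only as background. No library had a fractional count, the mark of reads divided between genes, for any of the 3, and no gene overlapped them in the reference gene table. The name NAC5 is also listed for another gene, GeneID 100280247, and the rows were matched by ID; that gene had 10.6 ± 2.66 CPM in EU nascent and 9.40 ± 3.52 CPM in nuclear (SD, n = 5 each), and its log2 fold change of 0.29 ± 0.24 (SE) did not pass the edgeR test (adjusted p = 0.337).

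The genes differed in how even they were within a group. The coefficient of variation of nac5 was 25.1% in EU nascent and 29.0% in nuclear. For ERF1 it was 9.05% in EU nascent and 19.8% in nuclear, and for DIP1 13.3% in EU nascent and 13.1% in nuclear. The biological coefficient of variation estimated by edgeR was 0.178 for nac5, 0.112 for ERF1 and 0.108 for DIP1, against a median of 0.103 over all tested genes. Of the tested genes, 10.3% had a higher value than nac5, and 40.4% had a higher value than ERF1.

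Libraries with the same replicate number deviated together across genes, so the ratio within each number was also taken. For nac5 the EU nascent level was 1.95, 3.08, 4.11, 4.36 and 4.28 times the nuclear level in numbers 1 to 5, lowest in number 1, where the EU nascent level was lowest of its group and the nuclear level second highest. For ERF1 the ratios were 2.67, 1.92, 2.76, 2.33 and 2.83, lowest in number 2, where nuclear ERF1 was highest. For DIP1 they were 2.66, 2.46, 2.09, 2.21 and 2.42. All 15 ratios were above 1, which follows from groups that do not overlap. The log2 ratios had an SD of 0.50 for nac5, 0.23 for ERF1 and 0.14 for DIP1, widest for nac5. With the replicate number as a block, the log2 fold changes were 1.89, 1.25 and 1.23 for nac5, ERF1 and DIP1.

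**Figure D2:**
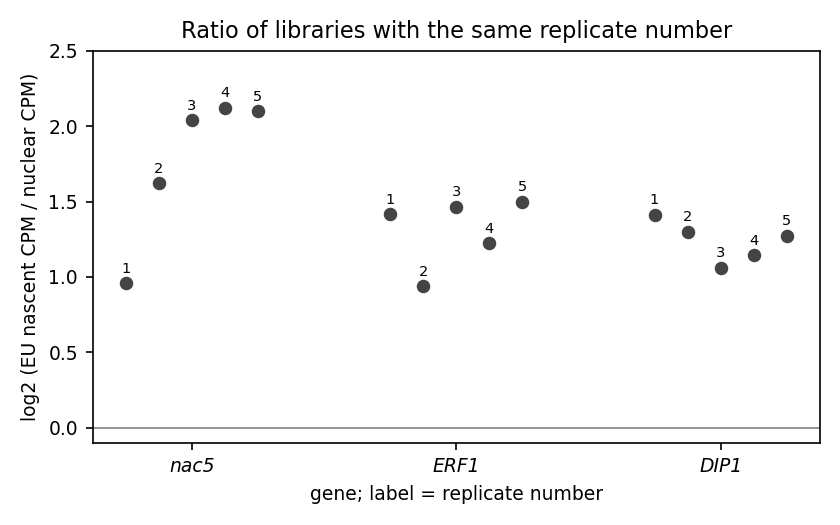
Log2 ratio of the EU nascent to the nuclear level (CPM) between libraries of the same replicate number, with each point labelled by that number and the line at 0 marking equal levels. The nac5 ratios range from 0.96 in number 1 to 2.12 in number 4, and those of DIP1 from 1.06 to 1.41.

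Ratios between the 3 genes inside 1 library do not depend on how libraries are scaled. DIP1 had 1.82 ± 0.32 counts per count of ERF1 in EU nascent and 1.91 ± 0.35 in nuclear (SD over 5 libraries each), and the groups overlapped, from 1.49 to 2.28 in EU nascent and from 1.56 to 2.41 in nuclear. ERF1 had 3.14 ± 1.07 counts per count of nac5 in EU nascent and 4.21 ± 0.93 in nuclear. DIP1 had 5.55 ± 1.43 counts per count of nac5 in EU nascent and 8.13 ± 2.60 in nuclear. These ranges also overlapped, the highest EU nascent ratios being those of replicate 1, where nac5 was low. These are ratios of counts that are not corrected for gene length, so they compare libraries, not the amounts of the genes.

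Within their groups the 3 genes did not move closely together. As deviations of log2 CPM from the group means over the 10 libraries, which share scaling and replicate numbers, the Pearson correlation was 0.33 between nac5 and ERF1, 0.22 between nac5 and DIP1 and 0.18 between ERF1 and DIP1. Among the 18869 genes with a mean of at least 5 CPM, the genes most like nac5 on this measure were LOC103654603 (0.97), LOC100216987 (0.94) and LOC100272521 (0.94). Those most like ERF1 were LOC100216697 (0.94), LOC103634670 (0.89) and LOC103632899 (0.88), and those most like DIP1 were LOC103650737 (0.97), LOC103643715 (0.96) and LOC103643812 (0.96). Such values are the highest out of all genes compared, over 10 libraries, and are a description only. Of these 9 genes, LOC103643715 was higher in EU nascent by edgeR (log2 fold change 0.60 ± 0.16, SE, adjusted p = 0.00700), with 30.4 ± 7.46 CPM in EU nascent and 19.1 ± 4.48 CPM in nuclear (SD, n = 5 each). LOC103650737 was higher by 0.41 ± 0.14 (edgeR adjusted p = 0.0263), and this did not hold when EU nascent replicate 2 or 4 or nuclear replicate 5 was left out (largest adjusted p = 0.0998). The remaining 7 were not past the edgeR threshold, with log2 fold changes from -0.25 for LOC103643812 to 0.19 for LOC100216987. Of all tested genes, 19.8% were higher by edgeR. With the replicate number as a block, LOC100216987 (adjusted p = 0.0392), LOC103634670 (0.0376) and LOC103643812 (0.0410) passed as well. LOC100216987 also passed without EU nascent replicate 1 (edgeR adjusted p = 0.0330) and LOC103643812 without nuclear replicate 1 (edgeR adjusted p = 0.0385). With library totals alone, LOC100216987 (edgeR adjusted p = 0.00334) and LOC103632899 (0.0411) passed.

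By name, 26 NAC genes were found, which need not be the whole family, and nac5 took a larger share of their counts in new RNA. That share was 3.30%, 6.04%, 5.57%, 5.75% and 3.98% in EU nascent replicates 1 to 5, against 1.80%, 2.0%, 1.38%, 1.38% and 0.888% in nuclear replicates 1 to 5. The mean was 4.93% ± 1.21 in EU nascent and 1.49% ± 0.43 in nuclear (SD over 5 libraries each), and the groups did not overlap. Since nac5 was chosen for its high level in EU nascent, this difference in share is not independent of that choice. Beside nac5, 16 NAC genes were tested, of which 4 were higher, 2 lower and 10 did not pass the edgeR test. The 4 include NAC76, which passed the filter on low counts through EU nascent, where it was high. Its call is therefore a description only, and the count of 4 is not set against the background as a result. The background was 19.8% higher and 21.1% lower over all genes. Library totals alone gave 7 higher and 1 lower, and without nuclear replicate 2 or nuclear replicate 3 the number of higher genes was 2. Their median log2 fold change was 0.20, against 0.02 over all tested genes.

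Most listed NAC genes differed far less than nac5, which was chosen for its large difference. NAC61 (GeneID 100383037) had 42.6 ± 11.4 CPM in EU nascent and 29.4 ± 4.72 CPM in nuclear (SD, n = 5 each) and was higher by 0.53 ± 0.16 (log2, SE, edgeR adjusted p = 0.0114). NAC40 (GeneID 100281380) was higher by 0.46 ± 0.17 (edgeR adjusted p = 0.0393). Its call was lost when EU nascent replicate 1, 2 or 4 or nuclear replicate 2, 3, 4 or 5 was left out (largest adjusted p = 0.115), with DESeq2 (adjusted p = 0.0724) and with no filter (edgeR adjusted p = 0.0666). The lowest was a gene listed as NAC1 (GeneID 100273092), with 41.9 ± 7.97 CPM in EU nascent and 72.4 ± 9.15 CPM in nuclear and a log2 fold change of -0.80 ± 0.11 (edgeR adjusted p = 2.65e-05). NAC12 (GeneID 100382324) was lower by a small amount, -0.26 ± 0.07 (edgeR adjusted p = 0.00723), and did not pass with library totals alone (adjusted p = 0.345). Another gene listed as NAC1 (GeneID 101027155, -0.01 ± 0.11, edgeR adjusted p = 0.956) and NAC120 (GeneID 100383817, 0.02 ± 0.08, adjusted p = 0.850) were among the NAC genes with the most counts and did not pass the test. NAC76 (GeneID 100382216), singled out after its values were seen, was the only tested NAC gene with a log2 fold change above that of nac5. It had 5.14 ± 2.03 CPM in EU nascent and 1.24 ± 0.47 CPM in nuclear, from only 104 counts in EU nascent and 34 in nuclear. Its nuclear levels were at most 1.85 CPM and its EU nascent levels at least 2.58 CPM. It passed the filter on low counts through EU nascent, where it was high. Its log2 fold change of 2.09 ± 0.35 (SE), or 1.84 to 2.28 with any 1 library left out, is therefore a description only.

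The AP2/ERF genes found by name, of the family to which ERF1 belongs, went both ways. ERF1 took 4.30%, 4.38%, 4.09%, 3.77% and 4.10% of the counts of the 38 listed genes in EU nascent replicates 1 to 5, against 1.91%, 2.32%, 1.66%, 1.59% and 1.64% in nuclear replicates 1 to 5. The mean share was 4.13% ± 0.24 in EU nascent and 1.83% ± 0.31 in nuclear (SD over 5 libraries each), with no overlap. This difference in share is not independent of the choice of ERF1. Beside ERF1, 24 were tested, of which 8 were higher, 5 lower and 11 did not pass by edgeR. That is 33.3% higher and 20.8% lower, against 19.8% and 21.1% of all tested genes. The median log2 fold change was 0.19, in a range from -0.94 to 0.87. ERF1, chosen for its high value, lay above all of them.

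**Figure D3:**
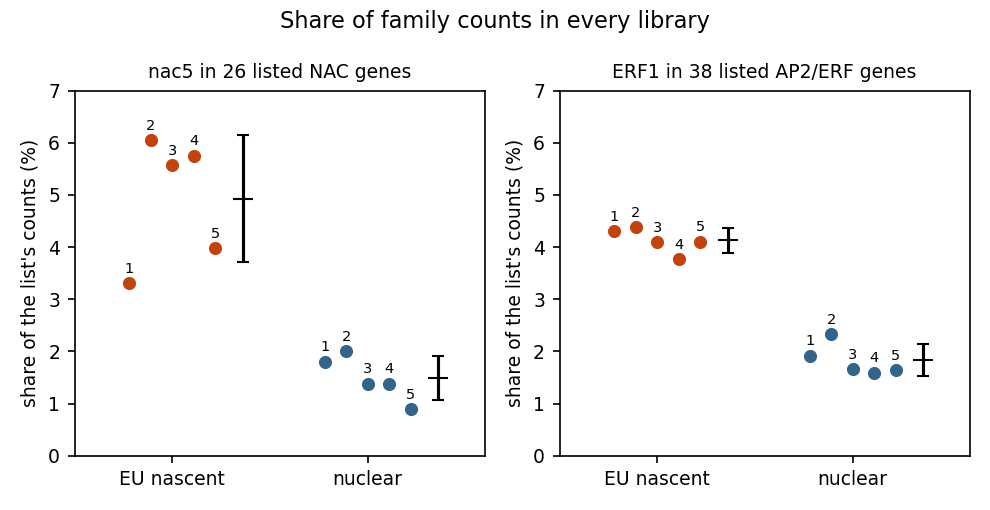
Share of the counts of genes listed by name that fell on nac5 (left, of 26 NAC genes) and on ERF1 (right, of 38 AP2/ERF genes). Each library is shown in percent from 0 and labelled by replicate number, and bars are the mean and SD. The EU nascent shares run from 3.30% to 6.04% for nac5 and from 3.77% to 4.38% for ERF1, all above the nuclear ones.

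Among the AP2/ERF genes, EREB179 (GeneID 100216626) had 59.8 ± 11.8 CPM in EU nascent and 33.3 ± 6.99 CPM in nuclear (SD, n = 5 each) and was higher by 0.87 ± 0.15 (log2, SE, edgeR adjusted p = 0.000174). EREB92 (GeneID 100280582) was higher by 0.79 ± 0.13 (edgeR adjusted p = 7.98e-05), with 34.8 ± 4.15 CPM in EU nascent and 18.9 ± 4.08 CPM in nuclear. EREB27 (GeneID 100280370) and EREB156 (GeneID 100280932) were the lowest, with -0.94 ± 0.20 (edgeR adjusted p = 0.000981) and -0.86 ± 0.14 (edgeR adjusted p = 0.000104). Of the members with the most counts, EREB208 (GeneID 100192050) was higher by 0.47 ± 0.09 (edgeR adjusted p = 0.000425). EREB109 (GeneID 103632654) was lower by a small amount, -0.23 ± 0.08 (edgeR adjusted p = 0.0352), and its call was lost without EU nascent replicate 2, 3 or 4 or nuclear replicate 2, 4 or 5 (largest adjusted p = 0.125). It also did not pass with library totals alone (adjusted p = 0.564) or with no filter (0.0510).

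The gene of the DIP1 partner DBF1 and the DBF1 target rab17 were looked at whatever their values. The partner gene dbf1 (GeneID 542569), coding for an activator of rab17, was higher in EU nascent too. The difference between its change and that of DIP1 was not tested. It had 165.3 ± 16.4 CPM in EU nascent and 115.8 ± 5.38 CPM in nuclear (SD, n = 5 each), with a range of 148.7 to 186.9 CPM in EU nascent and 108.7 to 121.3 CPM in nuclear, so the groups did not overlap. Its log2 fold change was 0.51 ± 0.08 (SE, edgeR adjusted p = 7.21e-05), and 1 of its 10 libraries had a fractional count. Of all tested genes, 19.8% were higher by edgeR, and EU nascent lay entirely above nuclear for 11.2%. The related gene dbf2 (GeneID 541957), also listed as dreb1, did not pass the test (-0.10 ± 0.21, edgeR adjusted p = 0.746), with 4.36 ± 0.50 CPM in EU nascent and 4.19 ± 0.97 CPM in nuclear. The target rab17, listed as dhn1 (GeneID 542373) and coding for a dehydrin that accumulates under abscisic acid and drying, was barely detected. It had 3 counts over the 5 EU nascent libraries and 1 count over the 5 nuclear libraries, too few to test. The interaction of the DIP1 and DBF1 proteins was not measured in these data.

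Other stress and hormone genes, found by name, showed no common direction. Of 4 dehydrin and late embryogenesis genes, which protect cells from drying, dhn2 (GeneID 542251) alone had enough counts. It was lower, with 22.8 ± 2.49 CPM in EU nascent and 46.3 ± 10.7 CPM in nuclear (SD, n = 5 each) and a log2 fold change of -1.07 ± 0.13 (SE, edgeR adjusted p = 4.96e-06). Of 4 tested genes of ethylene synthesis and signalling, 2 were higher by edgeR, where 19.8% of all tested genes were: ACS6 (GeneID 100217270), of the ACC synthase family that makes the ethylene precursor, by 0.63 ± 0.15 (adjusted p = 0.00296), and the receptor gene ERS14 (GeneID 100126971) by 0.62 ± 0.12 (adjusted p = 0.000649). By edgeR and by DESeq2, 0 were lower, and 0 were lower at an unadjusted edgeR p under 0.05. The receptor gene etr2 (GeneID 541627) had 0.03 ± 0.08 (edgeR adjusted p = 0.815), and it passed with library totals alone (0.20, adjusted p = 0.0431).

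Abscisic acid genes were a list, matched by name alone, of receptors (PYL), phosphatases of the PP2C family, SnRK2 kinases and others. Whether each of them acts in abscisic acid signalling was not checked. Of the 40 tested, 9 were higher, 11 lower and 20 did not pass the edgeR test. The shares of 22.5% higher and 27.5% lower were near the 19.8% and 21.1% of all tested genes. Their median log2 fold change was -0.03, and 0.14 with library totals alone, where 10 were higher and 7 lower. The receptor gene PYL2 (GeneID 100382238) had -0.87 ± 0.10 (SE, edgeR adjusted p = 2.71e-06) and PP2C2 (GeneID 100281468) had -0.70 ± 0.13 (edgeR adjusted p = 0.000267). PP2C20 (GeneID 103636504), also listed as PP2C6, was higher by 0.71 ± 0.11 (edgeR adjusted p = 6.96e-05) and the kinase gene SnRK2.6 (GeneID 100216941) by 0.58 ± 0.15 (edgeR adjusted p = 0.00401). Of the members with the most counts, PP2C19 (GeneID 100857041) was lower (-0.52 ± 0.13, edgeR adjusted p = 0.00480), SnRK2.7 (GeneID 100282729) higher (0.45 ± 0.08, edgeR adjusted p = 0.000225), and PP2C23 (GeneID 100283027) had -0.11 ± 0.10 and did not pass.

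WRKY genes, of a family of factors best known from defence, had 5 of 14 tested genes higher, 3 lower and 6 that did not pass by edgeR. That is 35.7% higher and 21.4% lower, against 19.8% and 21.1% of all tested genes, and the median log2 fold change was 0.02. WRKY53 (GeneID 100147737) was higher by 0.98 ± 0.23 (SE, edgeR adjusted p = 0.00220) and WRKY110 (GeneID 100191630) by 0.77 ± 0.11 (edgeR adjusted p = 2.99e-05). WRKY62 (GeneID 100191937) had -0.89 ± 0.17 (edgeR adjusted p = 0.000459) and WRKY111 (GeneID 100502167) -0.81 ± 0.17 (edgeR adjusted p = 0.00102). Of those with the most counts, WRKY1 (GeneID 100279793, 0.34 ± 0.08, edgeR adjusted p = 0.00231) and WRKY109 (GeneID 100192894, 0.48 ± 0.10, edgeR adjusted p = 0.00101) were higher, and WRKY116 (GeneID 100382344) had 0.02 ± 0.08.

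Heat shock factor genes, of a family best known for switching on chaperone genes, had 3 of 8 tested genes higher and 3 lower by edgeR. That is 37.5% each, against 19.8% higher and 21.1% lower of all tested genes. Hsf01 (GeneID 100280131) had -0.75 ± 0.18 (SE, edgeR adjusted p = 0.00349) and hsfb (GeneID 103636652) -0.70 ± 0.14 (edgeR adjusted p = 0.000810). HSF29 (GeneID 100274128) was higher by 0.60 ± 0.20, HSF2 (GeneID 100283853) by 0.41 ± 0.15 and Hsf05 (GeneID 100281501) by 0.26 ± 0.09 (edgeR adjusted p = 0.0207, 0.0357 and 0.0333), while Hsf17 (GeneID 100280318) had 0.08 ± 0.11. These 3 higher calls depended on single libraries. HSF29 was lost without EU nascent replicate 4 or nuclear replicate 2 or 4 (largest edgeR adjusted p = 0.0752). HSF2 was lost without EU nascent replicate 2 or 4 or nuclear replicate 3, 4 or 5 (largest edgeR adjusted p = 0.113). Hsf05 was lost without EU nascent replicate 2 or 5 or nuclear replicate 1, 3, 4 or 5 (largest edgeR adjusted p = 0.0810), and with no filter (0.0513). The number of higher genes fell to 0 without nuclear replicate 4.

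**Figure D4:**
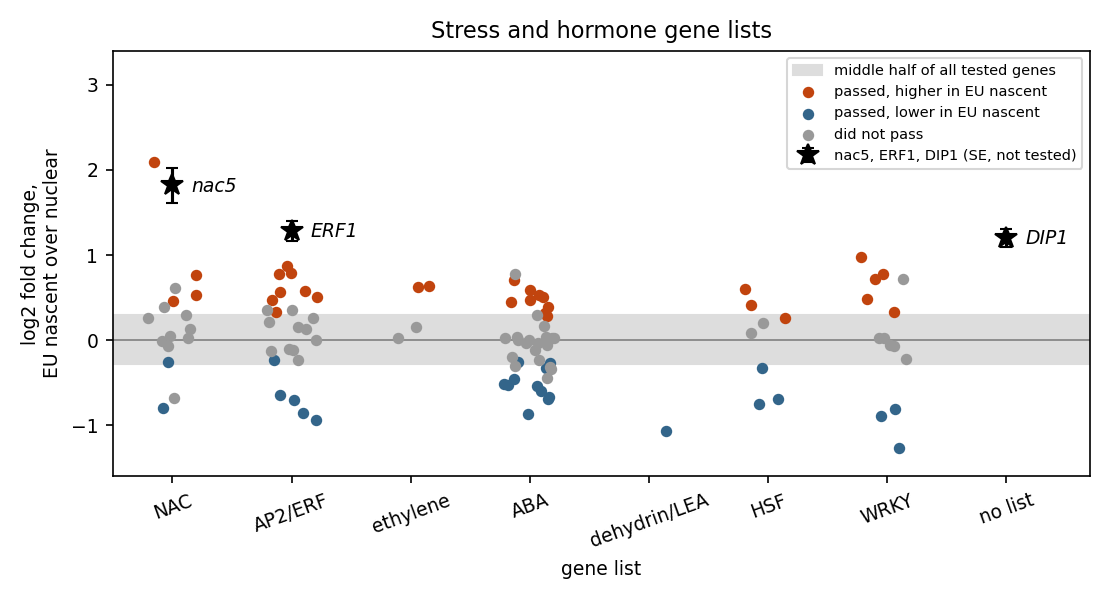
Log2 fold change of EU nascent over nuclear for the tested genes of 7 lists found by name, with colour for the edgeR call (adjusted p under 0.05), the grey band for the middle 50% of all tested genes (-0.28 to 0.30), and stars with SE for nac5, ERF1 and DIP1. The stars at 1.82, 1.28 and 1.20 lie above all listed genes except NAC76, and each list with more than 5 tested genes has points on both sides of 0.

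Beside the 3 members and the markers, 57 tested genes were named here. Of these, 15 had a fractional count in 1 to 5 libraries, so that their reads may be shared with another gene. Of the list genes these were NAC1 (GeneID 100273092), NAC120, EREB109, EREB156, EREB179, EREB208, dbf1, PP2C23, WRKY111 and HSF2. Among the genes most like a member they were LOC100216987 (5 libraries), LOC100216697 (1) and LOC103632899 (1). Among the neighbours they were LOC100276032 (4) and bZIP34 (4). LOC100216987 and LOC103632899 also overlapped another gene in the gene table. Of the markers, pbf1 had a fractional count in 5 libraries, and PIN1a and me3 in 1 each.

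Genes next to nac5, ERF1 and DIP1 in the gene table were compared with them, 2 on each side. Beside nac5, LOC100284172 was higher by 0.38 ± 0.12 (log2, SE, edgeR adjusted p = 0.0180), with 19.1 ± 1.40 CPM in EU nascent and 15.2 ± 2.02 CPM in nuclear (SD, n = 5 each). That call was lost without EU nascent replicate 2 or nuclear replicate 4 or 5 (largest edgeR adjusted p = 0.0661). LOC100275959 (0.17 ± 0.20) and LOC103629854 (0.56 ± 0.28, edgeR adjusted p = 0.120) did not pass, the second of these passing without EU nascent replicate 5 (edgeR adjusted p = 0.0157) and with library totals alone (0.0374), and LOC100277977 had too few counts to test. Beside ERF1, LOC109941737 had no count, LOC103635069 had 4 counts over EU nascent and 6 over nuclear, LOC103635071 had 36 over EU nascent and 30 over nuclear, and LOC100191719, with 11.6 ± 2.20 CPM in EU nascent and 10.4 ± 1.53 CPM in nuclear (SD, n = 5 each), did not pass the edgeR test (0.18 ± 0.16, adjusted p = 0.398).

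The neighbours of DIP1 went different ways. The glutathione transferase gene gst41 (GeneID 541849) was higher by 0.92 ± 0.11 (log2, SE, edgeR adjusted p = 4.85e-06), with 44.8 ± 6.48 CPM in EU nascent and 23.2 ± 2.11 CPM in nuclear (SD, n = 5 each). Between it and DIP1, LOC107305672 was lower, with -0.46 ± 0.16 (edgeR adjusted p = 0.0243), which did not hold when EU nascent replicate 2 or 4 or nuclear replicate 4 was left out (largest edgeR adjusted p = 0.0761) and with library totals alone (adjusted p = 0.124). On the other side, the leucine zipper factor gene bZIP34 (GeneID 100281685) had -0.10 ± 0.09 and LOC100276032 had 0.25 ± 0.12, neither past the test. LOC100276032 passed with the replicate number as a block (edgeR adjusted p = 0.0249), without EU nascent replicate 1 (0.0322) and with library totals alone (0.00729).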

How the data were processed

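Per the labels' protocols, RNA from nuclei was freed of DNA and of ribosomal RNA, and the directional library kit carried molecular identifiers. The authors deposited what appear to be estimated counts (the unit of expected counts: reads per gene, most whole within 1e-06, not normalized). The tools in the submitters' processing notes, listed there without roles, are HTSeq, UMI-tools, STAR 2.7.10b, Trimmomatic 0.36 and 0.39, deepTools and SAMtools. Genome build, annotation and strand setting are not given in the sources used here, so overlapping and antisense genes are uncertain and no coordinates are given.

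Counts were rounded and tested over the whole table with edgeR 4.0.16 (limma 3.58.1, R 4.3.3): filterByExpr, TMM, quasi-likelihood F test, Benjamini-Hochberg at 0.05. An SE is the absolute log2 fold change over the square root of F. The edgeR step was tested on simulated counts with few changed genes, the same spread for every gene and no effect of replicate number. That setting is simpler than these data, so it does not vouch for the calls given here. DESeq2 1.42.0 was an alternative. Other steps used scipy 1.17.1, pandas 2.3.3 and numpy 2.4.6 in Python 3.11.15. Lists were matched by symbol or synonym in the Zm-B73-REFERENCE-NAM-5.0 gene table of RefSeq, in which products are not described. The markers plt1 and plt2 were left out because these symbols also name phospholipid transfer genes. Intervals cover counting error only.

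Members and lists were chosen with earlier results of these data known. For each list, the 2 highest and 2 lowest genes among those passing with a mean of at least 5 CPM and the 3 with the most counts were named, with members of the likeness and neighbour comparisons. The planned comparison with proteins of like sequence was not done, since no sequences were used. An item of the planned lists is not reported here. Same-numbered libraries deviated together (correlation of deviations from group means 0.20, 0.22, 0.18, 0.19 and 0.16 for numbers 1 to 5). The numbers were therefore used to pair libraries for the ratios and in an alternative edgeR test. The main edgeR test, from which the main calls, SEs and background shares come, did not use them. The labels do not say what a number shares.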

Additional observations from a re-analysis of the deposited data

Results flagged for a closer look

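In 10 of 124 groups of 5 libraries, 1 library lay far from the other 4 by Dixon's criterion of 0.71, which chance meets in about 1 group of 20. For ERF1, nuclear replicate 2 had 37.0 CPM against 24.1 to 27.5 CPM in the other nuclear libraries. In EU nascent replicate 1, NAC1 (GeneID 100273092) had 55.7 CPM, ERS14 17.8 CPM, LOC103632899 147.3 CPM and bZIP34 67.8 CPM, each away from its other EU nascent libraries. In EU nascent replicate 2, EREB27 had 6.54 CPM and LOC100284172 21.6 CPM. In nuclear libraries, NAC61 had 21.0 CPM and LOC103629854 1.85 CPM in replicate 3, and dhn2 had 27.5 CPM in replicate 1.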

How the results depend on the processing

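Over all alternatives the log2 fold changes stayed between 1.70 and 1.99 for nac5, 1.20 and 1.45 for ERF1 and 1.14 and 1.37 for DIP1. With 1 library left out they ran from 1.70 to 1.99, 1.20 to 1.43 and 1.14 to 1.28. Library totals alone moved the median of all genes from 0.02 to 0.19 and gave 7374 genes higher and 2768 lower, against 4166 and 4437; NAC genes other than nac5 then had 7 higher and 1 lower, and ABA genes 7 lower. DESeq2 gave 2 higher NAC genes. With 1 library left out, all genes had 3403 to 4637 higher and 3898 to 4630 lower, heat shock factors had 0 to 3 higher and NAC genes 2 to 5 higher. The cause of these changes was not tested. Of 57 other named genes that were tested, markers not among them, 45 kept their side of the threshold whichever library was left out. The block changed 4 of their calls, all given above, and no others. The 1 CPM filter kept 22113 genes. Library totals moved all 3 of these fold changes up, as they moved the median, and gave 5 further calls among the named genes, given above. The 203 nuclear counts of nac5 limit its precision, beside its spread between libraries.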
